A study of Mus musculus with 8 samples.

Results

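The genes described here were grouped as immediate early AP-1 genes. They are Fos, Fosb, Fosl1, Fosl2, Jun, Junb, Jund and Atf3, together with Ier2 and Ier3. The name is that of the list, and not every member need be induced within minutes, which was not tested here. The genes were taken from a list of symbols, and all 10 were found among the 19301 genes of the table. The cells were primary mouse tendon stem cells (TSCs) from the patellar tendon of C57BL/6J mice, with no transgene. They were cultured for 4 days in low glucose medium (LG, 5.5 mM glucose with DMSO) or in high fat, high glucose medium (HFHG, higher glucose and 300 µM palmitic acid). Each group had 4 biological replicates. The media differed in glucose and in palmitic acid, and the contributions of these to a difference cannot be told apart. DMSO is named for LG only, and whether HFHG also held it is not stated. mRNA was sequenced, and the level of each gene is given in FPKM, the reads of a gene scaled to its length and to the reads of its library. Levels are therefore per length and can be set side by side between genes.

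AP-1 is a dimer of proteins with a basic leucine zipper (bZIP). Jun proteins pair with each other or with a Fos protein, whereas Fos proteins need a Jun partner, and the dimer binds the motif TGACTCA in promoters and enhancers. Immediate early genes are transcribed within minutes of a growth factor, a stress or a mechanical load, without new protein synthesis, and their mRNA is usually short-lived. In tendon and other connective tissue, AP-1 is known for the control of matrix metalloproteinase genes, and Fos family members act in the formation of bone.

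The 240 bases before the start sites of Fos and Jun are shown because both genes rose in HFHG and because their promoters are the classical examples of immediate early control. They are RefSeq sequences of build GRCm38.p6, from 250 to 11 bases before the RefSeq start, read 5′ to 3′ on the strand of the gene. The Fos stretch is chr12:85473640-85473879 on the plus strand, and the Jun stretch is chr4:95052233-95052472 on the minus strand. Capitals mark TGACGT, the core of the cAMP response element, TATAAA, the TATA box, and TGACATCA, the variant AP-1 element of the Jun promoter.
Fos: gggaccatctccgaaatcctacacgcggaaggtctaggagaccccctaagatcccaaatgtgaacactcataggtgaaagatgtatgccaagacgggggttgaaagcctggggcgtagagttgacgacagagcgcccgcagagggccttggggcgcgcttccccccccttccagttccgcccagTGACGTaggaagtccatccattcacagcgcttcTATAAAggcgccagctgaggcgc
Jun: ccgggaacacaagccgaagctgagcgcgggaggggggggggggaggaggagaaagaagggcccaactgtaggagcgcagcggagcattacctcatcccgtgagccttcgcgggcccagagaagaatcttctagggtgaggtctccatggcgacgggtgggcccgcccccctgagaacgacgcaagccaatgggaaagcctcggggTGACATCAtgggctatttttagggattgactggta
In Fos, TGACGT lay 66 to 61 and TATAAA 33 to 28 bases before the start. TGACATCA lay 45 to 38 bases before the start of Jun. The AP-1 motif TGACTCA, the core TGACGT, the variant TGACATCA, the TATA box and the CArG box (the motif of serum response factor) were searched on both strands in the 250 bases before the start, and no match overlapped another. The promoters of 8 members were in the table, without Fosl1 and Ier2. TGACGT was found in 2 of the 8 (Fos, and Atf3 at 8 to 3 bases before the start) and in 6.47% of 32851 promoters. TGACATCA was found in 1 of the 8, against 2.93% of all promoters, and TATAAA in 1 of the 8, against 12.4%. TGACTCA, held by 4.46% of all promoters, and the CArG box, held by 1.47%, had no exact match in the windows of the 8 members. These matches describe the letters of the windows only. Sequence further from the start was not searched, so a CArG box or another motif there would be missed. For Fosl2 and Jund, the RefSeq start lay 671 bases inside and 1210 bases before the nearest GENCODE start, so their windows may not be the promoters used in these cells.

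All 10 genes passed the filter on low values and all 10 differed between the media at an adjusted p below 0.05 by limma, 4 of them higher and 6 lower in HFHG. Fosb, Fosl2, Jun and Fos were higher, and Atf3, Fosl1, Ier3, Ier2, Junb and Jund were lower. Of all 11710 tested genes, 64.8% passed the same threshold, 34.0% higher and 30.8% lower, so that calls were common among all genes. No member changed by more than 2-fold, the threshold of the study's methods, which 5.33% of tested genes passed. The values of the groups did not overlap for 8 of the 10 members, compared with 59.2% of tested genes. The median size of the log2 fold change was 0.46 for the members and 0.25 for all tested genes, and the median with sign was −0.14 and 0.02.

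**Figure D1:**
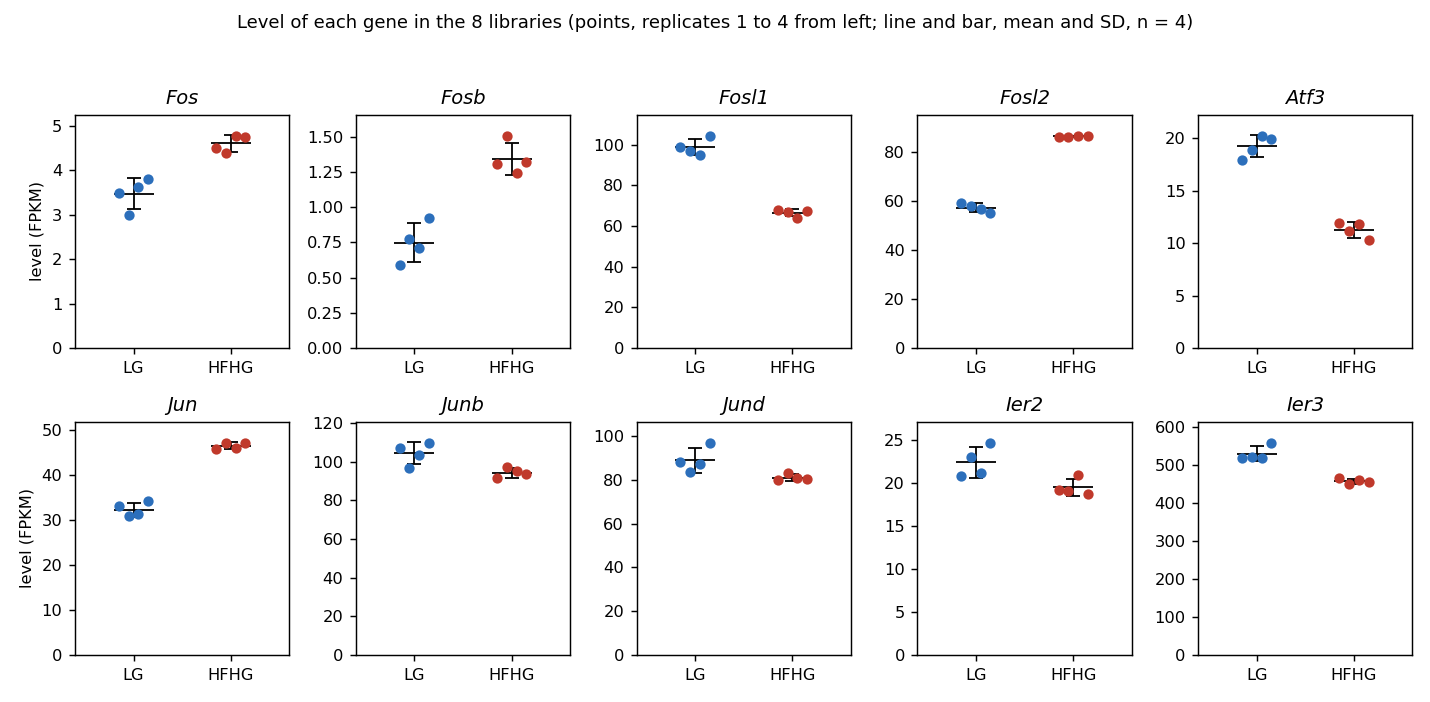
Level (FPKM, linear axis from 0) of each of the 10 genes in the 4 LG libraries (blue) and the 4 HFHG libraries (red), with replicates 1 to 4 from left to right and the mean and SD of each group. Fos, Fosb, Fosl2 and Jun sat higher in HFHG, Fosl1, Atf3, Jund and Ier3 lower, and Junb and Ier2 had values that overlapped.

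Total reads were 35385644 to 37362725 in the HFHG libraries and 34308108 to 36308533 in the LG libraries. LG replicate 4 stood apart from the other LG libraries, with a variance against each of them of 7.88 to 11.4 times the counting variance, compared with 3.42 to 4.72 times in the other pairs. Its value was the highest of the LG group for 8 of the 10 members. Without it, all 10 members kept their direction and their call. The tendon markers Scx and Tnmd were present at low levels, the collagen and matrix markers were high, and macrophage markers were also present. In such bulk RNA, fewer cells of a type and less RNA per cell cannot be told apart.

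Among the Fos family genes, Fosl2, which encodes FRA-2, was the most abundant in HFHG. Fosl2 is on chromosome 5 (mm10 chr5:32135801-32157842, plus strand, NCBI gene number 14284), and its transcript has 4 exons. The level in HFHG replicates 1 to 4 was 86.4, 86.3, 86.5 and 86.6 FPKM, against 59.3, 58.2, 56.9 and 55.0 FPKM in LG. The HFHG libraries were nearly identical and all of them were above all LG libraries. Fosl2 rose by 0.59 ± 0.03 (SE) on the log2 scale of FPKM + 0.1, or 1.51 times the LG mean (adjusted p = 1.40e-09 by limma, n = 4 in each group). Between 13863 and 22858 reads lay behind each value.

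Fosl1, which encodes FRA-1, went the other way. FRA-1 and FRA-2 are the Fos proteins that lack the strong C-terminal activation domain of FOS. Fosl1 is on chromosome 19 (mm10 chr19:5447547-5455946, plus strand, NCBI gene number 14283) and overlaps Ccdc85b on the opposite strand. The level was 67.8, 66.9, 64.0 and 67.5 FPKM in HFHG and 98.8, 97.1, 94.9 and 104 FPKM in LG. Each HFHG library was below each LG library. Fosl1 fell by 0.57 ± 0.03 (SE) on the log2 scale, to 0.674 times the LG mean (adjusted p = 9.11e-09 by limma, n = 4).

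The 4 Fos family genes summed to 159 ± 1.72 FPKM (SD, n = 4) in HFHG, compared with 160 ± 3.44 FPKM in LG, with ranges of 156.4 to 160.2 and 156.1 to 163.95 FPKM that overlapped. The make-up of that sum differed. Fosl1 made up 41.9% ± 0.663 (SD, n = 4) of it in HFHG and 61.6% ± 1.33 in LG, and Fosl2 made up 54.4% ± 0.591 and 35.8% ± 1.50. The ratio of Fosl2 to Fosl1 was 1.27, 1.29, 1.35 and 1.28 in the HFHG libraries, by replicate number, against 0.601, 0.600, 0.599 and 0.528 in LG. Fosl2 exceeded Fosl1 in each HFHG library, and Fosl1 exceeded Fosl2 in each LG library. The lowest of the LG ratios was that of replicate 4, and the other LG libraries were within 0.599 to 0.601. A ratio within a library does not change with a linear scaling of that library. The family sums do change with such a scaling, and they were not rescaled here. The FPKM of all genes summed to 402404 to 409466 in the HFHG libraries and to 416926 to 433432 in the LG libraries.

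**Figure D2:**
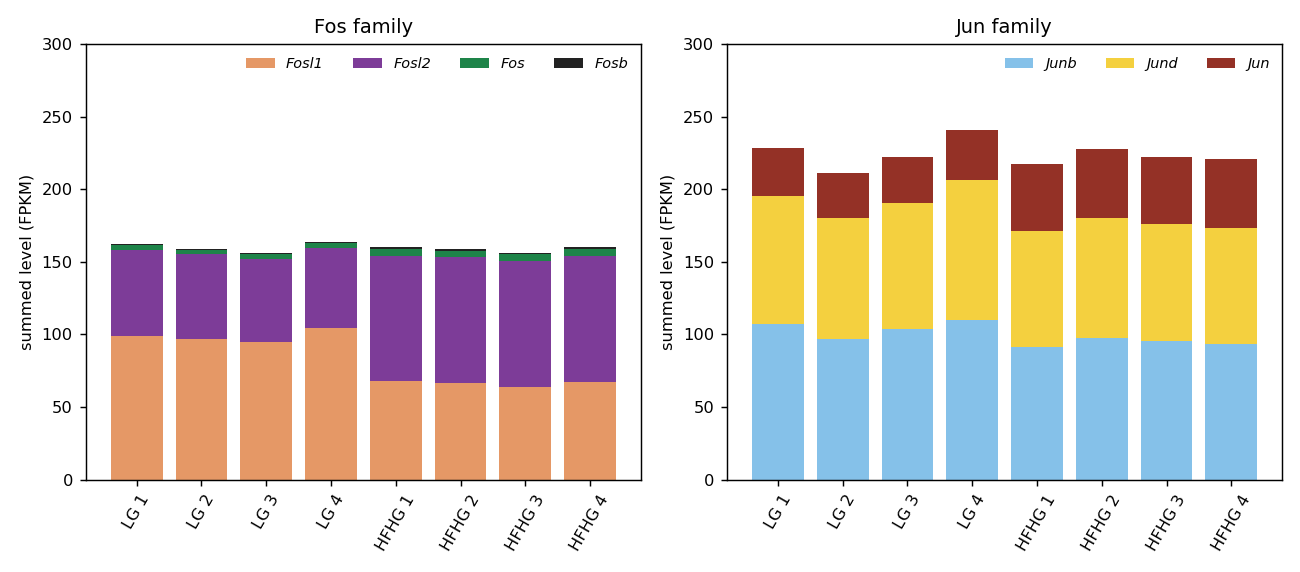
Summed level (FPKM) of the Fos family (left) and the Jun family (right) in each library, with the part of each gene in colour. The total height of the Fos family bars was 156.1 to 163.95 FPKM in LG and 156.4 to 160.2 FPKM in HFHG, while the Fosl2 part grew and the Fosl1 part shrank in HFHG.

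Fos and Fosb, the genes usually used to follow an immediate early response, were at low levels in both media. Fos is on chromosome 12 (mm10 chr12:85473890-85477273, plus strand, NCBI gene number 14281), starts at the same base as the RefSeq start above, and has 4 exons. HFHG replicates 1 to 4 held 4.51, 4.38, 4.77 and 4.75 FPKM, and LG replicates 3.48, 2.99, 3.61 and 3.80 FPKM. The groups did not overlap. Fos rose by 0.40 ± 0.08 (SE) on the log2 scale (adjusted p = 5.05e-04 by limma, n = 4), and its values rest on 229 to 366 reads. Fosb (mm10 chr7:19302696-19310051, minus strand, NCBI gene number 14282) was the lowest member, with 1.30, 1.50, 1.24 and 1.32 FPKM in HFHG and 0.587, 0.773, 0.710 and 0.923 FPKM in LG. All HFHG values were above the LG values, and the rise was 0.78 ± 0.13 (SE) on the log2 scale (adjusted p = 1.98e-04 by limma, n = 4). Between 76 and 201 reads lay behind each Fosb value, and its log2 fold change was 0.42 with a pseudocount of 1 and 0.85 with 0.01. Fos and Fosb were minor parts of the Fos family sum, with 2.90% ± 0.134 and 0.845% ± 0.0684 in HFHG and 2.16% ± 0.205 and 0.466% ± 0.0831 in LG (SD, n = 4).

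The Jun family genes are each a single exon, which is the case for 7.06% of 21836 genes with a principal transcript. Jun is the founding member of the family and its strongest activator. Jun is on chromosome 4 (mm10 chr4:95049034-95052222, minus strand, NCBI gene number 16476) and overlaps the antisense gene Junos. Its level was 45.9, 47.2, 46.0 and 47.2 FPKM in HFHG and 33.1, 30.9, 31.3 and 34.2 FPKM in LG. The lowest HFHG library was above the highest LG library. Jun rose by 0.52 ± 0.04 (SE) on the log2 scale, or 1.44 times the LG mean (adjusted p = 5.26e-08 by limma, n = 4).

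Junb and Jund, which encode partners with weaker activation in many settings, were more abundant than Jun and slightly lower in HFHG. Junb (mm10 chr8:84974484-84978718, minus strand, NCBI gene number 16477) overlaps Prdx2 on the opposite strand. It was at 91.4, 97.3, 95.3 and 93.4 FPKM in HFHG and at 107, 96.7, 104 and 110 FPKM in LG. LG replicate 2 was within the HFHG range, so that the groups overlapped. Junb fell by 0.14 ± 0.04 (SE) on the log2 scale (adjusted p = 0.00475 by limma, n = 4), and the exact two-sided permutation p was 0.0571. Quantile normalization brought this to −0.07, with an adjusted p of 0.0899 by limma. Rescaling to the same sum brought it to −0.08 and kept the call (adjusted p = 0.0382 by limma).

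Jund (mm10 chr8:70698949-70700616, plus strand, NCBI gene number 16478) overlaps the antisense gene Gm11175. It was at 79.9, 83.1, 80.7 and 80.2 FPKM in HFHG and at 87.9, 83.7, 87.0 and 96.8 FPKM in LG. The highest HFHG value was just below the lowest LG value, and the LG spread was set by replicate 4. Jund fell by 0.13 ± 0.04 (SE) on the log2 scale (adjusted p = 0.00977 by limma, n = 4). This call was lost when the libraries were rescaled to the same sum (−0.07, adjusted p = 0.0621 by limma) and under quantile normalization (−0.06, adjusted p = 0.0934).

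The 3 Jun family genes summed to 222 ± 4.35 FPKM (SD, n = 4) in HFHG and 226 ± 12.3 FPKM in LG, again with ranges that overlapped (217 to 228 and 211 to 241 FPKM). Jun made up 21.0% ± 0.313 of the sum in HFHG and 14.4% ± 0.234 in LG. Junb made up 42.5% ± 0.385 and 46.2% ± 0.675, and Jund 36.5% ± 0.211 and 39.4% ± 0.701. The ratio of Jun to Junb was 0.483 to 0.506 in HFHG and 0.302 to 0.319 in LG. The ratio of the Fos family sum to the Jun family sum was 0.716 ± 0.0179 in HFHG and 0.712 ± 0.0302 in LG, with ranges that overlapped.

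Atf3 encodes a bZIP protein that is induced by many stresses and acts downstream of Atf4, and it can pair with Jun proteins. It is on chromosome 1 (mm10 chr1:191170296-191218039, minus strand, NCBI gene number 11910) with 4 exons in its principal transcript. HFHG libraries held 11.9, 11.1, 11.8 and 10.3 FPKM, and LG libraries 17.9, 18.9, 20.2 and 19.9 FPKM. The groups were well apart, and LG replicate 3 rather than 4 was the highest. Atf3 fell by 0.76 ± 0.05 (SE) on the log2 scale, to 0.587 times the LG mean (adjusted p = 8.37e-08 by limma, n = 4), the largest decrease among the members.

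Ier2 and Ier3 encode small proteins without a bZIP domain. Ier3 (mm10 chr17:35821684-35822923, plus strand, NCBI gene number 15937), a stress-induced regulator of cell survival, was the most abundant member, with 466, 450, 461 and 455 FPKM in HFHG and 519, 523, 519 and 559 FPKM in LG. All HFHG libraries were below all LG libraries, and LG replicate 4 was far above the other LG libraries. Ier3 fell by 0.21 ± 0.03 (SE) on the log2 scale (adjusted p = 1.58e-05 by limma, n = 4). Under quantile normalization its difference was −0.01, with an adjusted p of 0.556 by limma, whereas without LG replicate 4 it was −0.18.

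Ier2 (mm10 chr8:84661331-84662852, minus strand, NCBI gene number 15936), a nuclear protein gene with a single exon, was at 19.2, 19.1, 21.0 and 18.8 FPKM in HFHG and at 20.8, 23.1, 21.2 and 24.7 FPKM in LG. HFHG replicate 3 was above LG replicate 1, so that the groups overlapped. Ier2 fell by 0.20 ± 0.06 (SE) on the log2 scale (adjusted p = 0.00730 by limma, n = 4), with an exact permutation p of 0.0571. For the 8 members whose groups did not overlap, the exact two-sided permutation p was 0.0286, the smallest that the 70 arrangements of 4 against 4 libraries can give.

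**Figure D3:**
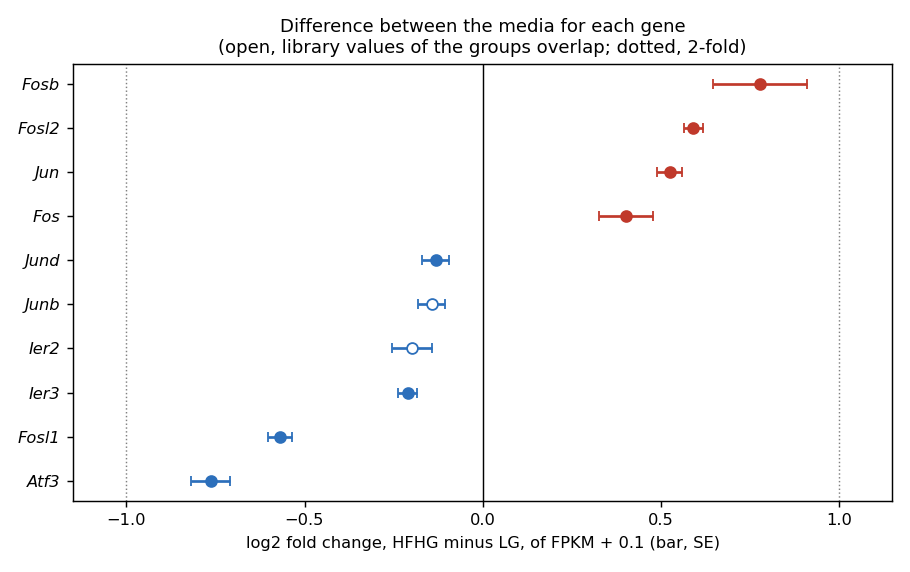
Difference in level between HFHG and LG (log2 scale of FPKM + 0.1, HFHG minus LG) of each gene with its SE from limma. The values ran from −0.76 for Atf3 to 0.78 for Fosb, none reached 2-fold (dotted lines), and the open points are Junb and Ier2, whose groups overlapped.

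By level, the members ran from Ier3 through Junb, Fosl2, Jund, Fosl1, Jun, Ier2, Atf3 and Fos to Fosb in HFHG, and the range of each gene was apart from that of the next. In LG, Fosl1 and Fosl2 changed places and the order was Ier3, Junb, Fosl1, Jund, Fosl2, Jun, Ier2, Atf3, Fos and Fosb. There, the ranges of Junb and Fosl1 overlapped, as did those of Fosl1 and Jund. The mean of Ier3 across HFHG libraries was 458 ± 6.90 FPKM (SD, n = 4), against 530 ± 19.4 FPKM in LG, and that of Fosb was 1.34 ± 0.113 and 0.748 ± 0.140 FPKM.

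The deviations of the members from their group means were compared over the 8 libraries as a description. Jun, Junb and Jund varied together, with Pearson's r of 0.85 for Jun and Junb, 0.88 for Jun and Jund and 0.85 for Junb and Jund. Without LG replicate 4, these were 0.78, 0.71 and 0.95 over 7 libraries. Fosl1 and Fosl2 had an r of −0.47 over the 8 libraries and 0.52 without LG replicate 4, so that its sign rested on that library. The genes whose deviations were most like those of Fos were Rpp21 (r = 0.988), Pcif1 (r = 0.974), Nr1h2 (r = 0.968), Htatsf1 (r = 0.965) and Gpc4 (r = 0.963), over 8 libraries. These were picked as the highest r among all tested genes. With so few libraries, chance alone can give values this high, so they do not show a link to Fos. Of these, Gpc4 was higher in HFHG (0.77 on the log2 scale, adjusted p = 1.74e-10 by limma), Rpp21 (−0.69, adjusted p = 5.85e-05) and Nr1h2 (−0.11, adjusted p = 0.0149) were lower, and Pcif1 (0.03) and Htatsf1 (0.10) did not pass the test.

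The 3′ untranslated regions of immediate early mRNAs often hold the pentamer ATTTA, the core of the AU-rich elements bound by decay factors such as Zfp36. In the principal GENCODE transcripts, Ier3 held 5 copies in 616 bases, or 8.12 per kb, which was above 98.1% of 19408 genes with an annotated region of at least 100 bases. Fos held 4 copies (4.89 per kb), Junb 2 (4.10 per kb) and Jun 4 (3.24 per kb), compared with a median of 1.32 per kb over all genes. Ier2 held 0, and Fosb held 1 copy in 2148 bases. In all, 8 of the 10 members were above the median. Both the members that rose and those that fell were among them.

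Other immediate early genes moved in both directions as well. Of 32 listed, 27 were tested, 12 rose and 9 fell, with a median log2 fold change of 0.09. For this and the following lists, the genes counted as risen or fallen had an adjusted p below 0.05 by limma. Of all tested genes, 34.0% were higher and 30.8% lower at that threshold, so such counts are common. Btg2, an antiproliferative gene, rose by 1.42 ± 0.05 (SE) on the log2 scale, from 10.3 ± 0.703 to 27.8 ± 0.907 FPKM (SD, n = 4). The kinase gene Sgk1 rose by 0.88 ± 0.03 and the matricellular gene Ccn1, a target of the mechanically regulated factor YAP, by 0.80 ± 0.02 (SE). On the other side, the phosphatase gene Dusp5 fell by 1.05 ± 0.09, Myc fell by 1.04 ± 0.06 and Ppp1r15a, a stress-induced phosphatase subunit, fell by 1.03 ± 0.03 (SE). These had adjusted p-values of 3.91e-07 or lower by limma. Egr1, named after its values were seen because it is usually induced together with Fos, fell by 0.40 ± 0.04 (SE), from 21.1 ± 0.226 to 16.0 ± 0.936 FPKM (adjusted p = 3.80e-06 by limma), whereas Fos rose. Egr3, Egr4, Nr4a3, Arc and Dusp2 were under the filter, with no value above 0.460 FPKM.

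Of 20 listed bZIP genes that can pair with AP-1 proteins or compete with them, 17 were tested, 3 rose and 9 fell (median −0.10). The stress gene Ddit3, which encodes CHOP, fell by 1.57 ± 0.04 (SE) on the log2 scale, from 201 ± 7.52 to 67.5 ± 3.20 FPKM (SD, n = 4). Atf4, which encodes the main factor of the integrated stress response, fell by 0.50 ± 0.02 (SE). Atf3 was thus lower together with Atf4 and Ddit3. The rises were small, with 0.24 ± 0.05 for Maf, 0.15 ± 0.02 for Nfe2l1 and 0.13 ± 0.05 (SE) for Atf7, whose adjusted p was 0.0250 by limma. The call of Atf7 was lost without HFHG replicate 3 or 4 and without LG replicate 3 or 4, with adjusted p-values of 0.0557 to 0.0685 by limma, and with a replicate block (adjusted p = 0.0619).

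Among 30 genes for upstream kinases and factors that bind immediate early promoters, 28 were tested, 14 rose and 8 fell (median 0.13). Map3k8, which encodes the kinase TPL2, rose by 1.09 ± 0.06 (SE), from 4.89 ± 0.383 to 10.5 ± 0.445 FPKM (SD, n = 4). Rps6ka5, which encodes the nuclear kinase MSK1, rose by 1.09 ± 0.12 (SE). It was at 0.593 to 0.853 FPKM in LG and at 1.50 to 1.73 FPKM in HFHG, and its log2 fold change was 0.61 to 1.20 across the alternatives. Map3k7, which encodes TAK1, rose by 0.58 ± 0.04 (SE). Lower were the p38 gene Mapk11, by 0.71 ± 0.09, Elk1, a partner of serum response factor at the Fos promoter, by 0.47 ± 0.06, and the ERK kinase gene Map2k1, by 0.44 ± 0.02 (SE). All of these had an adjusted p of 2.51e-05 or lower by limma. The list says nothing of the phosphorylation of these proteins.

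All 10 genes for the decay of AU-rich mRNAs and the turnover of Jun proteins were tested, of which 4 rose and 2 fell (median 0.01). Zfp36l1, a decay factor for AU-rich mRNAs, rose by 0.90 ± 0.03 (SE), from 45.9 ± 0.875 to 85.5 ± 1.55 FPKM (SD, n = 4), and Zfp36 by 0.23 ± 0.04 (SE). Fbxw7, a ubiquitin ligase subunit that targets Jun, rose by 0.57 ± 0.09 (SE), at 2.24 ± 0.232 and 3.36 ± 0.258 FPKM in LG and HFHG. Det1, part of another ligase for Jun, fell by 0.42 ± 0.08, and Khsrp, a decay factor, by 0.11 ± 0.03 (SE). The call of Khsrp (adjusted p = 0.0123 by limma) was lost after rescaling to the same sum (adjusted p = 0.258).

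Of 29 classical AP-1 target genes, 28 were tested, 7 rose and 17 fell (median −0.23). Hmga1, a chromatin protein gene, fell by 1.42 ± 0.03 (SE), from 133 ± 4.30 to 49.9 ± 1.18 FPKM (SD, n = 4). Lif fell by 0.99 ± 0.05 and the collagenase gene Mmp13 by 0.90 ± 0.02 (SE), from 2652 ± 73.9 to 1421 ± 21.5 FPKM. In contrast, the stromelysin gene Mmp3 rose by 0.59 ± 0.02 (SE), from 1491 ± 16.6 to 2243 ± 39.97 FPKM, and Vegfd by 1.12 ± 0.04 (SE). The osteopontin gene Spp1 rose by 0.68 ± 0.02 (SE), from 7123 ± 188 to 11382 ± 278 FPKM, but by 0.04 under quantile normalization (adjusted p = 0.248 by limma). Mmp3 and Mmp13, both textbook AP-1 targets, thus moved in opposite directions, with adjusted p-values of 6.61e-11 and 5.89e-12 by limma.

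**Figure D4:**
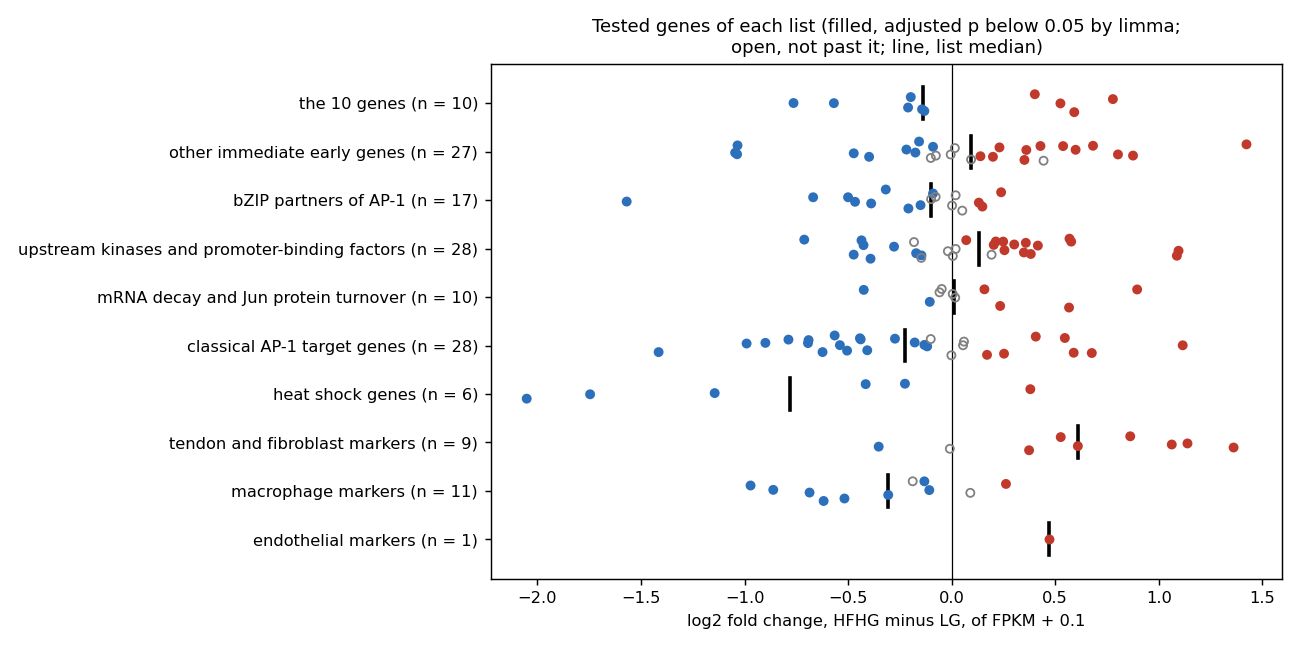
Difference in level between HFHG and LG (log2 scale of FPKM + 0.1) of each tested gene of the 10 members and of 9 lists, with filled points at an adjusted p below 0.05 and the list median as a line. The list medians ran from −0.78 for heat shock genes to 0.61 for tendon and fibroblast markers.

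Heat shock genes, which are also induced within minutes of a stress, mostly fell. Of 6 genes, 5 fell and 1 rose (median −0.78). Hspa1a fell by 2.05 ± 0.08 (SE), from 14.6 ± 0.755 to 3.45 ± 0.455 FPKM (SD, n = 4), and Hspa1b by 1.75 ± 0.06. These are near-identical genes, and the split of reads between them is uncertain. The mitochondrial co-chaperone gene Hspe1 fell by 1.14 ± 0.04, and the small heat shock gene Hspb1 rose by 0.38 ± 0.05 (SE).

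Marker genes moved between the media together with the members. Of 9 tendon and fibroblast markers, 7 rose and 1 fell (median 0.61). Col1a1 rose by 1.36 ± 0.02, Thbs4 by 1.14 ± 0.02 and Tnc by 1.06 ± 0.03 (SE), while the tendon factor Mkx fell by 0.35 ± 0.07 (SE). The low tendon markers Scx and Tnmd rose by 0.61 ± 0.19 and 0.86 ± 0.28 (SE), with adjusted p-values of 0.0138 and 0.0164 by limma. Their values rest on 56 to 163 and 10 to 59 reads, and the groups overlapped for Scx. By qPCR, the paper reported lower Scx and Tnmd in HFHG medium, the opposite direction, and no significant change of Mkx. The culture time of that qPCR is not stated, and the cause of the difference was not tested. The summed level of the 9 tendon and fibroblast markers was 2481 to 2533 FPKM in HFHG and 1599 to 1635 FPKM in LG. Most of that sum was Col1a1, Col1a2, Dcn, Thbs4 and Tnc. The group means of Scx, Tnmd and Mkx were at most 8.62 FPKM, so the sum says little of these tendon genes. Of 11 macrophage markers, 8 fell and 1 rose (median −0.31), with none at 0 in the libraries. Their summed level was 1797 to 1846 FPKM in HFHG and 1978 to 2064 FPKM in LG. Most of that sum was Lyz2, at 1637 ± 19.4 FPKM in HFHG and 1765 ± 32.6 FPKM in LG (SD, n = 4). The log2 fold change of Lyz2 was −0.11, and −0.15 to 0.006 across the alternatives. C1qa fell by 0.97 ± 0.05, Mrc1 by 0.86 ± 0.07 and Itgam by 0.69 ± 0.04, and Cd14 rose by 0.26 ± 0.04 (SE). Of 4 endothelial markers, Pecam1, Cdh5 and Kdr had no value above 0.197 FPKM, and Tek rose by 0.47 ± 0.13 (SE) at a level of 0.505 to 0.916 FPKM, with 0.22 to 0.54 across the alternatives. The part of these cell types in the levels of the 10 members was not tested.

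The differences of the members were set against 18 alternatives of scaling, pseudocount, filter, model and left-out libraries. Each of Fos, Fosb, Fosl1, Fosl2, Jun, Atf3 and Ier2 kept its direction and its call in all of them. With a minimum FPKM of 1, however, Fosb passed the filter only through the HFHG libraries, where it was higher. Its call in that alternative therefore adds no support. Across these alternatives Fosl2 ran from 0.55 to 0.65, Jun from 0.49 to 0.58, Fosl1 from −0.61 to −0.51 and Atf3 from −0.80 to −0.70 on the log2 scale. Fos ran from 0.32 to 0.46 and Fosb from 0.42 to 0.87. Junb, Jund and Ier3 lost their call under quantile normalization, and Jund also after rescaling to the same sum, with no change of direction.

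**Figure D5:**
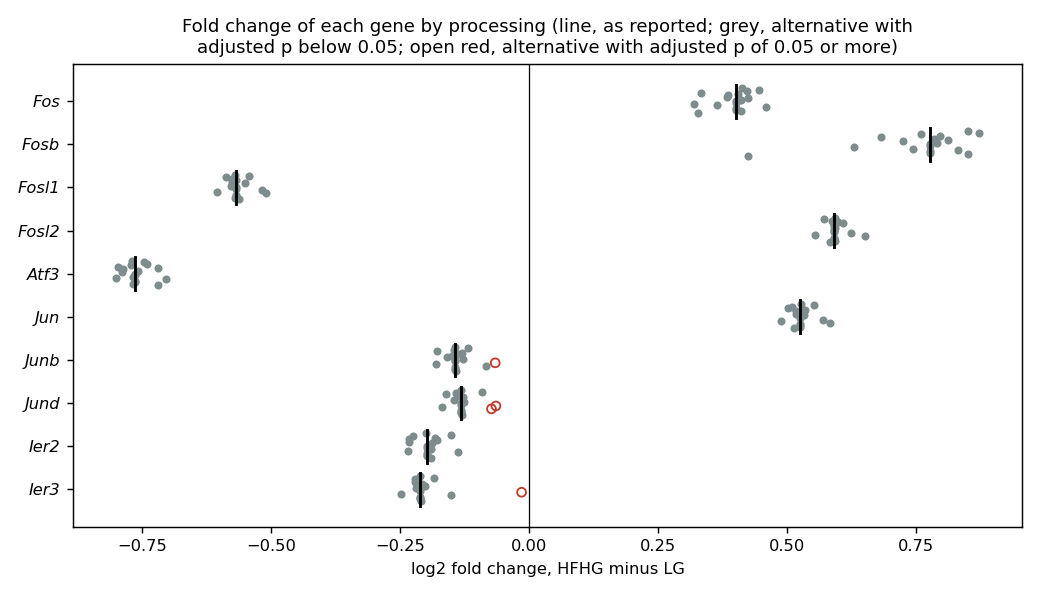
Difference between HFHG and LG (log2 scale) of each gene as reported (black line) and under 18 alternatives (points), where open red points have an adjusted p of 0.05 or more by limma. The open points belong to Junb, Jund and Ier3, and no point of any gene crossed 0.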

How the data were processed

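mRNA of TSCs cultured for 4 days in LG (5.5 mM glucose) or HFHG (25.5 mM glucose, 300 µM palmitic acid) was sequenced with a stranded kit on a NovaSeq instrument. Groups and replicate numbers came from the sample labels, and doses, days and the statement of biological replicates from the paper. For each library and without pooling, the authors deposited FPKM values for 19301 genes, and the table holds gene annotation as its other columns. The submitters' processing notes name HISAT2 2.1.0 and mm10. The counting program, the annotation and the use of strand in counting are not given in the sources used here, so genes that overlap on opposite strands may share reads.

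Whole reads were recovered from the FPKM of all 19301 genes (100% of genes, within 0.001 reads of a whole number), and 99.8% of the library totals lay on genes. A search on simulated data found the totals used to make them. Genes with at least 0.5 FPKM in at least 4 libraries were tested (11710) with limma 3.58.1 in R 4.3.3 on log2(FPKM + 0.1), with an intensity trend, two-sided, and with Benjamini-Hochberg adjustment over all tested genes. Fold changes on this scale understate the change of low genes. On simulated data with 11633 genes, the fit found 100 of 100 genes with a log2 change of 1 and 96 of 100 with 0.5, and called 11 unchanged genes. The simulation gave all genes the same spread beyond counting and held no library that stood apart. It changed 200 genes, far fewer than were called in the real data. These figures therefore do not give the error rates of the real comparison. Single members were also compared with an exact permutation test (scipy 1.17.1). As an added alternative, voom on the recovered reads called 4104 genes higher and 3678 lower.

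The fit was repeated with a pseudocount of 1 or 0.01, without the filter or with a minimum FPKM of 1, after quantile normalization, median-ratio scaling or rescaling to the same sum, with a replicate block, with a robust eBayes, and without each library in turn. Voom and the correlations without LG replicate 4 were added after seeing the data. Gene positions, exons and untranslated regions came from GENCODE M21 (GRCm38), matched by symbol.

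The 10 members and all lists were chosen with earlier results of these data known. Named from the other lists were up to 3 genes in each direction, ranked by the size of the log2 fold change among those with an adjusted p below 0.05, and the 5 genes most correlated with Fos. Egr1, the untested genes and the low markers Scx and Tnmd were named outside this rule. A result that this rule names is not reported here.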

Additional observations from a re-analysis of the deposited data

Results flagged for a closer look

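Single libraries lay far from the other 3 of their group, by Dixon's criterion, in 5 of 104 groups of 4 examined, and chance flags about 1 in 20 groups. Among the members, 1 of 20 groups was so marked. Ier3 was at 559 FPKM in LG replicate 4, against 519.1 to 522.6 FPKM in the other LG libraries. Hspa1b was at 6.622 FPKM in HFHG replicate 4, against 7.771 to 7.925 FPKM in the others. In the same library, Hspe1 was at 65.38 FPKM, against 70.87 to 71.33 FPKM. Zfp36l1 was at 87.86 FPKM in HFHG replicate 2, against 84.65 to 84.95 FPKM, and at 44.64 FPKM in LG replicate 1, against 46.29 to 46.46 FPKM. In each of these genes the HFHG and LG values did not overlap, with or without the library named.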

How the results depend on the processing

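All 10 members were called under 16 of the 18 alternatives. Of the 180 values of single members under the alternatives, 176 kept their direction and their call, 4 lost the call and 0 changed sign. The 4 were Junb, Jund and Ier3 under quantile normalization, with 3 members then called lower, and Jund after rescaling to the same sum. After that rescaling 1 gene of the decay and turnover list was called lower in place of 2. The endothelial list had 0 calls with a minimum FPKM of 1 and under quantile normalization. Of 755 values of the named genes of the other lists, 746 kept direction and call, 9 lost the call and 0 changed sign. The 9 were 6 of Atf7, with adjusted p up to 0.086, and 1 each of Khsrp, Spp1 and Tek, whose adjusted p under quantile normalization was 0.0645. The cause was not tested. Same-numbered libraries did not deviate together (r from −0.0736 to −0.0056 over genes), so the numbers were not taken as a pairing. With the replicate number as a block, 10 members were called, and 3841 genes higher and 3501 lower, against 3983 and 3609 without it. Among the members, Fosb had the fewest reads, 76 to 201 in a library, and it passed the minimum FPKM of 1 only through the HFHG libraries.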

Other observations

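The 4 HFHG values of Fosl2 had a coefficient of variation of 0.172%, below the 0.671% that counting error alone gives at its depth, while the LG values varied by 3.23%. Nr4a3, an immediate early nuclear receptor under the filter on low values, was at 0.377 to 0.460 FPKM in HFHG and 0.123 to 0.231 FPKM in LG, on 29 to 109 reads. In the deposited annotation, 8 of the 10 members carry the bZIP family label, all but Ier2 and Ier3.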
